A study of Mus musculus with 13 samples.

Results

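The 9 transcription factor genes followed here are known for defining microglia, and were measured across 13 sequenced libraries: Sall1, Sall3, Mef2a, Mef2c, Maf, Spi1, Irf8, Runx1 and Cebpa. They were chosen by name, and all 9 were found among the 14518 gene entries of the deposited table. The libraries hold RNA of microglia, the resident macrophages of the brain, sorted from C57BL/6 mice as CD11b-positive cells with intermediate CD45. The mice were adults of 2 months. The RSD mice (n = 7 libraries) were put through 6 cycles of repeated social defeat, a stress in which mice are exposed to an aggressor, with RNA extracted at 24 days from the final cycle. The CON mice (n = 6 libraries) were controls. The labels name no transgene for either group, and they do not say whether a library came from 1 mouse or from several, so p-values measure the spread between libraries.

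Transcription factors of this set act at different steps. Spi1 encodes PU.1, the ETS-family pioneer factor of myeloid cells, and Irf8, Runx1 and Cebpa act with it when macrophage precursors form. Sall1 and the MEF2 factors act later, on enhancers that PU.1 has opened, and loss of Sall1 moves microglia toward the profile of other tissue macrophages in mice. Maf encodes c-Maf, a basic leucine zipper factor of mature macrophages.

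Depth was 9760417 to 12273164 reads in the RSD libraries and 9894532 to 12244626 reads in the CON libraries (difference of means, two-sided exact permutation p = 0.335). P2ry12, a purine receptor that marks microglia, averaged 45136 ± 5614 in the RSD libraries and 39739 ± 10446 in the CON libraries (normalized reads; SD, n = 7 and 6). Values are normalized reads, that is, reads divided by the authors' size factor of the library. Each factor had at least 929 reads in each library, the fewest being for Spi1 in RSD 8, where counting alone gives an error of 3.28%. CON 18 and RSD 8 had median rank correlations of 0.948 and 0.975 with the other libraries over all genes, where the remaining libraries had 0.988 to 0.992. CON 18 was the highest of 13 libraries for 21.5% of all genes tested and the lowest for 22.6%, beside 0 and 2 of the 9 factors. RSD 8 was the highest for 27.5% and the lowest for 24.9%, beside 3 and 3 of the 9 factors.

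None of the 9 factors passed the test between the groups. In limma, fitted on log2(value + 1) over the 12496 genes that passed a filter on low reads, 0 of 9 factors had an adjusted p under 0.05, beside 0% of all genes tested, and 0 of 9 had an unadjusted p under 0.05, beside 4.00% of all genes. In edgeR the adjusted and unadjusted counts for the factors were also 0 and 0, beside 0% and 4.81% of all genes. In DESeq2 they were 0 and 0, beside 0.0160% (2 genes) and 4.62% of all genes. Of the 9 estimates 7 were positive and their median log2 difference was 0.09, against 0.01 over all genes. Without CON 18 and RSD 8, 5 of 9 were positive and the median was 0.013, against 0.00084 over all genes. The groups overlapped for each of the 9, where 0.0640% of all genes had groups that did not overlap. The plot of the factors by library shows this overlap.

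**Figure D1:**
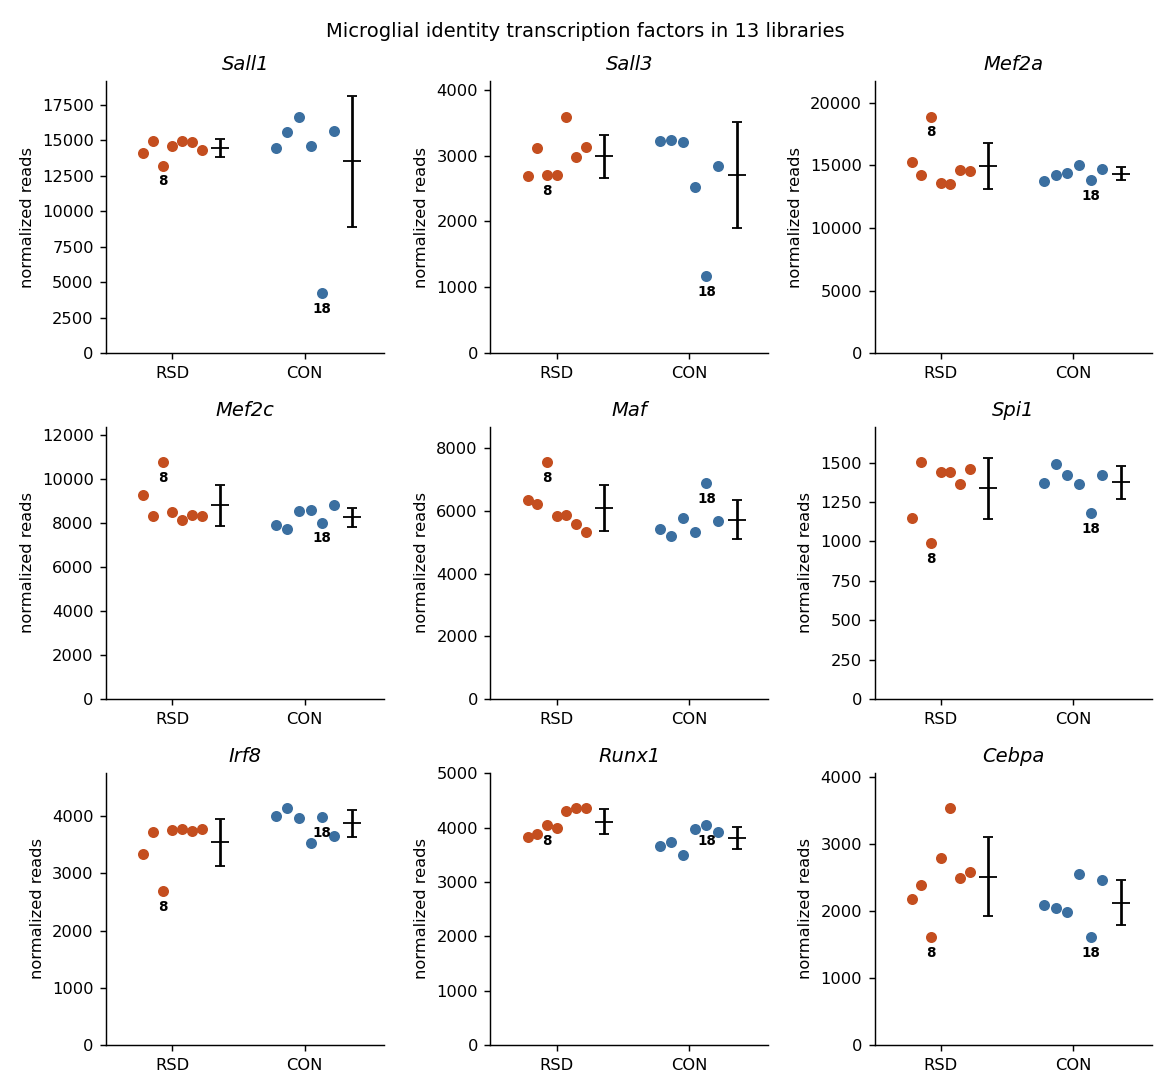
Normalized reads (vertical axes, from 0) of each factor in 7 RSD and 6 CON libraries, 1 point per library, with the mean and SD beside each group; 8 and 18 mark RSD 8 and CON 18. Sall1 and Sall3 are lowest in CON 18, and Mef2a, Mef2c and Maf are highest in RSD 8.

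Levels of the factors can be compared per exon length. Sall1 was the highest, at 2743 ± 120 normalized reads per kilobase of exon in RSD and 2570 ± 879 in CON (SD, n = 7 and 6), which placed it 94th of 12368 genes with a known length. Mef2a followed at 1018 ± 125 in RSD and 976 ± 34.6 in CON, then Cebpa at 953 ± 222 in RSD and 806 ± 129 in CON, and Maf at 740 ± 88.1 in RSD and 694 ± 74.9 in CON. Mef2c, Irf8 and Spi1 lay close together, with means per kilobase over all libraries of 545, 524 and 502. Mef2c was above Irf8 in 7 of 13 libraries and Irf8 above Spi1 in 8 of 13, so the order of these 3 did not hold against the spread between libraries. Sall3, with a mean of 382, and Runx1, with 330, were the lowest, and 90.1% of genes still lay below Runx1. Sall1 was above Mef2a in 12 of 13 libraries, the exception being CON 18, and Sall3 was above Runx1 in 12 of 13.

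**Figure D2:**
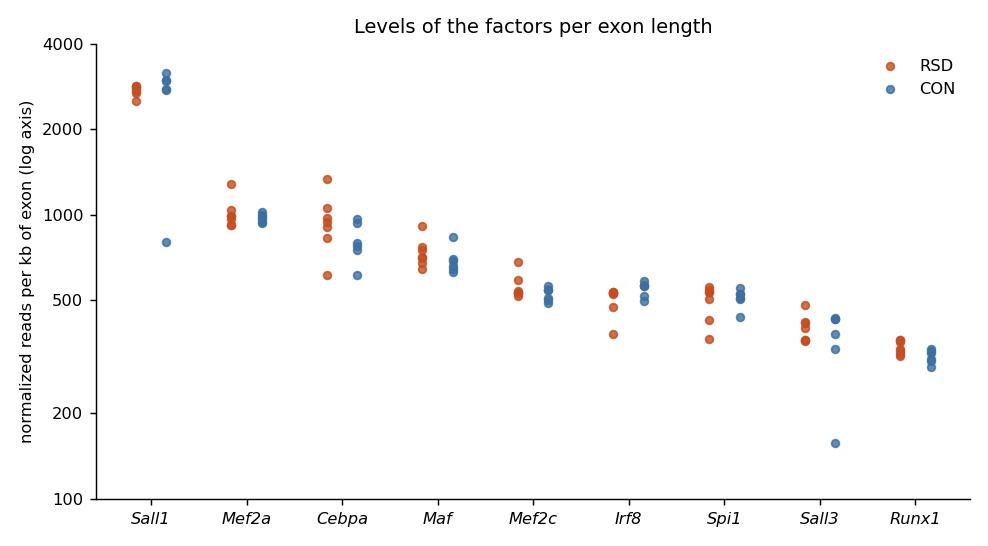
Normalized reads per kilobase of exon (log axis) of the 9 factors, ordered by their mean over 13 libraries, with RSD points left of CON points. Sall1 lies highest except in the CON library at 803 per kilobase, which is CON 18.

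The SALL zinc finger factors were set apart by a single control library. Sall1 lies at chromosome 8, 89027235 to 89044162, and Sall3 at chromosome 18, 80966376 to 80986771 (GRCm38, minus strand for both). Sall1 had a lowest, median and highest value of 13228.1, 14575 and 14995.1 normalized reads in RSD, against 4225.8, 15076 and 16684.0 in CON. Apart from CON 18, the controls were at 14456.2 to 16684.0, so the RSD values overlapped the lower end of theirs. Sall3 had 2683.5, 2981.9 and 3592.4 in RSD, against 1174.2, 3029 and 3240.1 in CON, and again CON 18 was the lowest of all 13. The log2 difference of Sall1 was 0.22 ± 0.27 (SE; limma adjusted p = 0.846) and that of Sall3 was 0.22 ± 0.20 (limma adjusted p = 0.821). Both differences depended on CON 18. Without it the Sall1 difference was -0.09 ± 0.06 (limma adjusted p = 0.745) and the Sall3 difference was -0.01 ± 0.09 (limma adjusted p = 0.977), and without both CON 18 and RSD 8 the Sall3 difference was 0.01 ± 0.08 (limma adjusted p = 0.994).

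CON 18 held 28.7% of the median of the other libraries for Sall1 and 38.5% for Sall3, the largest departures of the 9 there. Maf was at 120%, the highest of the CON libraries, Irf8 at 106%, Runx1 at 102%, Mef2a at 95.5% and Mef2c at 95.2%. Spi1 was at 83.0% and Cebpa at 66.6%, with Cebpa within 1 normalized read of the lowest other library. The ratio of Sall1 to Sall3 per kilobase was 6.92 ± 0.59 in RSD and 6.96 ± 1.12 in CON, and 5.11 in CON 18, below the 5.91 to 8.23 of the libraries other than CON 18 and RSD 8. In this library 14 of the 20 genes of the list of microglial genes downstream of these factors were the lowest of 13, against 22.6% of all genes tested, and P2ry12 was at 0.427 of the median of the others.

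Most markers of border and peripheral macrophages were highest in CON 18, where Sall1 and Sall3 were lowest. Values were present for 17 of the 20 listed markers, and 15 of the 17 were highest in CON 18. Their summed level lay between 6870 and 11170 normalized reads in RSD, against 179798 in CON 18 and between 10147 and 11080 in the remaining CON libraries. Of the 12 that were tested, 10 were highest in CON 18 (83.3%, beside 21.5% of all genes tested) and 0 passed in limma. All 12 estimates were negative, with a median log2 difference of -0.51, while 6420 of 12496 were positive over all genes. These estimates include CON 18 among the controls, and none without CON 18 is given here. Apoe, a lipid carrier, was 87.6-fold and Mrc1, a mannose receptor of border macrophages, 45.2-fold the median of the other libraries there. Lyve1, Ly6c2 and Clec4n had no gene entry under those names. In sorted bulk RNA, fewer cells of a type and less RNA per cell cannot be told apart, and the part of these markers in the Sall1 and Sall3 values was not tested.

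The start-site windows of 4 of the factors are printed for comparison, each reaching from 250 bases before to 50 bases after a RefSeq start site, in GRCm38.p6, 5′ to 3′ along the gene. They are Sall1 and Cebpa, which departed most in CON 18 or RSD 8, and the MEF2 pair. Capitals mark matches, on either strand, to the ETS letters GAGGAA and to the MEF2 letters, CTA and TAG with 4 bases between them.
Sall1, chr8:89044113-89044412, minus strand: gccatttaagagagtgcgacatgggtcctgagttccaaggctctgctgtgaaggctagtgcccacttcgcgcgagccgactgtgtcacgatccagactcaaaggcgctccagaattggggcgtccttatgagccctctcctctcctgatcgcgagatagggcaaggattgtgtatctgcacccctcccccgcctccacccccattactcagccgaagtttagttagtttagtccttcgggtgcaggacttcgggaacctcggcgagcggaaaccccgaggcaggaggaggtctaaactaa
Cebpa, chr7:35119043-35119342, plus strand: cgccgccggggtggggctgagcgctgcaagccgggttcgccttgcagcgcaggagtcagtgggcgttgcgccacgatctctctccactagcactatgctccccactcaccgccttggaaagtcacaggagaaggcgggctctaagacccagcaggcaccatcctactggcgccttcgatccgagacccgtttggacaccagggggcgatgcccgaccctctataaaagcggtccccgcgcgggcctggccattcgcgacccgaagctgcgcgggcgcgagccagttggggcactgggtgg
Mef2a, chr7:67372809-67373108, minus strand: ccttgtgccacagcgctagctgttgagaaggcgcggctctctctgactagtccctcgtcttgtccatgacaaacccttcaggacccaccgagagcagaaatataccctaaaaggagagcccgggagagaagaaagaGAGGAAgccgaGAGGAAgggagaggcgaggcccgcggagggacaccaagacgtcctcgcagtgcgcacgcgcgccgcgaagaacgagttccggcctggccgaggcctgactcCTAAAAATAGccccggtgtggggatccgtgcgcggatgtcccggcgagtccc
Mef2c, chr13:83503784-83504083, plus strand: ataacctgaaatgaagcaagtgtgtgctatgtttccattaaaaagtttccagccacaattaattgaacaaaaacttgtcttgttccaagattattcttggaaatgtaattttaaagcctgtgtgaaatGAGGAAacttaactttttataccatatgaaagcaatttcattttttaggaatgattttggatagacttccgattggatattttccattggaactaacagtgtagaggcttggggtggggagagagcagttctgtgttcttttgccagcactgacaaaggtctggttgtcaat

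RefSeq gives 3 such windows for Sall1 and 3 for Mef2c, and the outermost start site of each is the one printed. The printed Mef2a window held GAGGAA at positions -114 and -103 from the start site and CTAAAAATAG from position -2, and the printed Mef2c window held GAGGAA at -122, while 1 of the 2 other Mef2c windows held no match. The ETS letters occur in 28.3% and the MEF2 letters in 3.69% of all 32851 such windows of the genome. The printed Sall1 and Cebpa windows held neither, nor GGAA and GAAA with 2 bases between them (ETS-IRF composite, 2.71% of windows), TTGC and AA with 2 bases between them (C/EBP, 10.8%), TGTGGT (RUNX, 16.8%) or TGCTGAC (MAF, 4.67%). The GC content of the printed windows was 57.3% for the Sall1 window (70% and 79.7% in its other windows), 67.3% for the Cebpa, 62.3% for the Mef2a and 35.7% for the Mef2c window. Windows were taken for 6 of the 9 factors, and the chromosome of Sall3 was left out of that selection. A match is a run of letters, not a binding site.

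The MEF2 factors, MADS-box proteins of enhancers in microglia, muscle and neurons, were highest in RSD 8 and RSD 2. Mef2a lies at chromosome 7, 67231163 to 67372858, on the minus strand, and Mef2c at chromosome 13, 83504034 to 83667080, on the plus strand. Mef2a had a lowest, median and highest value of 13531.8, 14529 and 18885.0 normalized reads in RSD, against 13744.5, 14327 and 15046.1 in CON. RSD 8 stood alone at the top and RSD 2 (15244.5) was next. Mef2c had 8150.8, 8347 and 10759.4 in RSD, against 7718.5, 8279 and 8820.4 in CON, and RSD 8 and RSD 2 (9285.9) again came first. The log2 difference was 0.05 ± 0.08 for Mef2a (SE; limma adjusted p = 0.865) and 0.09 ± 0.07 for Mef2c (limma adjusted p = 0.821). The 95% interval of the fold ran from 0.926 to 1.16 for Mef2a and from 0.955 to 1.18 for Mef2c. Without RSD 8 the difference was -0.0052 ± 0.05 for Mef2a and 0.04 ± 0.05 for Mef2c (limma adjusted p = 0.992 and 0.978). Without CON 18 and RSD 8 the coefficient of variation was 3.94% for Mef2a and 5.06% for Mef2c over 11 libraries. The ratio of Mef2a to Mef2c per kilobase was 1.81 ± 0.07 in RSD and 1.86 ± 0.07 in CON (two-sided exact permutation p = 0.236), and was 1.88 in RSD 8 and 1.84 in CON 18. The exons of Mef2a share 302 bases with Lysmd4 on the opposite strand, and whether the counting used strand is not given in the sources used here.

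Maf, which lies at chromosome 8, 115682942 to 115707794, on the minus strand, was higher in both libraries that stood apart. It had a lowest, median and highest value of 5309.4, 5859 and 7544.6 normalized reads in RSD, against 5197.3, 5560 and 6895.5 in CON. RSD 8 held the highest value and CON 18 the next. The log2 difference was 0.09 ± 0.09 (SE; limma adjusted p = 0.823), and 0.09 ± 0.05 without these libraries (limma adjusted p = 0.903). It was 0.04 ± 0.07 without RSD 8 alone and 0.15 ± 0.08 without CON 18 alone (limma adjusted p = 0.978 and 0.745).

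Among the factors of the myeloid lineage, Runx1 had the smallest p in limma. Runx1, the runt-domain factor of blood stem cells and early macrophages, lies at chromosome 16, 92601466 to 92826149, on the minus strand. It had a lowest, median and highest value of 3828.3, 4054 and 4360.1 normalized reads in RSD, against 3501.8, 3827 and 4042.2 in CON. Of the 7 RSD libraries, 4 lay above all controls, and the other 3 lay inside the CON range. Its mean was 4113 ± 227 in RSD and 3808 ± 208 in CON (SD, n = 7 and 6), a log2 difference of 0.11 ± 0.06 (SE; limma adjusted p = 0.821). The two-sided exact permutation test of this value gave p = 0.0326, and 0.294 after adjustment over the 9 factors. Runx1 also moved with the sample number. It was at 3779 ± 190 in libraries numbered 1 to 8 (n = 6) and 4137 ± 195 in those numbered 10 to 19 (n = 7). RSD over CON, Runx1 differed by a log2 of 0.11 ± 0.10 among the lower numbers and 0.10 ± 0.06 among the higher ones (limma adjusted p = 0.471 and 0.726).

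Cebpa, the C/EBP alpha factor of granulocyte and monocyte precursors, is a gene with a single exon at chromosome 7, 35119293 to 35121928, on the plus strand. It varied most of the lineage factors, with a lowest, median and highest value of 1616.4, 2491 and 3536.4 normalized reads in RSD, against 1617.1, 2068 and 2546.8 in CON. RSD 8 and CON 18 were the lowest and lay within 1 normalized read of each other, and RSD 11 was the highest. The log2 difference was 0.22 ± 0.15 (SE; limma adjusted p = 0.821). In numbers 1 to 8 the values were 2050 ± 256 and in numbers 10 to 19 they were 2576 ± 564, and the difference of RSD over CON was -0.0034 ± 0.14 in the first range and 0.38 ± 0.19 in the second (limma adjusted p = 0.99 and 0.726). Neutrophils also use this gene. The summed level of 6 neutrophil markers was 4.62 to 927 normalized reads in RSD and 2.9 to 530 in CON, and was highest in RSD 2, 8 and 7, where Cebpa was the lowest of the RSD libraries. These are the RSD libraries numbered 1 to 8. Among controls the sum was 124 to 530 in numbers 1 to 8 and 2.9 to 34.9 in numbers 10 to 19. The level of these markers and the range of the sample number thus cannot be told apart here. The part of these markers in the Cebpa values was not tested.

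Irf8 and Spi1 had lower means in RSD than in CON. Irf8, the interferon regulatory factor that pairs with PU.1 in microglia, lies at chromosome 8, 120736358 to 120756694, on the plus strand. It had a lowest, median and highest value of 2688.0, 3745 and 3778.7 normalized reads in RSD, against 3521.7, 3970 and 4139.8 in CON. RSD 8 and RSD 2 (3332.0) lay below all controls, and the 5 other RSD libraries fell within 3730.8 to 3778.7, inside the CON range. The log2 difference was -0.14 ± 0.08 (SE; limma adjusted p = 0.821), or -0.06 ± 0.05 without CON 18 and RSD 8 (limma adjusted p = 0.916). Among the lower sample numbers Irf8 stood at -0.33 ± 0.13, and among the higher ones at 0.02 ± 0.06 (limma adjusted p = 0.205 and 0.934).

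Spi1, at chromosome 2, 91082390 to 91115756, on the plus strand, had a lowest, median and highest value of 988.6, 1440 and 1501.4 normalized reads in RSD, against 1177.6, 1395 and 1489.7 in CON. RSD 8 and RSD 2 (1148.2) were again the lowest libraries, followed by CON 18. The log2 difference was -0.05 ± 0.10 (SE; limma adjusted p = 0.896), with a 95% interval of the fold from 0.836 to 1.11. The Spi1 difference turned to 0.02 ± 0.07 without RSD 8, to 0.08 ± 0.05 with the GC trend removed and to 0.12 ± 0.08 among sample numbers 10 to 19 (limma adjusted p = 0.985, 0.888 and 0.726). The ratio of Spi1 to Irf8 per kilobase was 0.98 ± 0.05 in RSD and 0.93 ± 0.09 in CON (two-sided exact permutation p = 0.193).

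**Figure D3:**
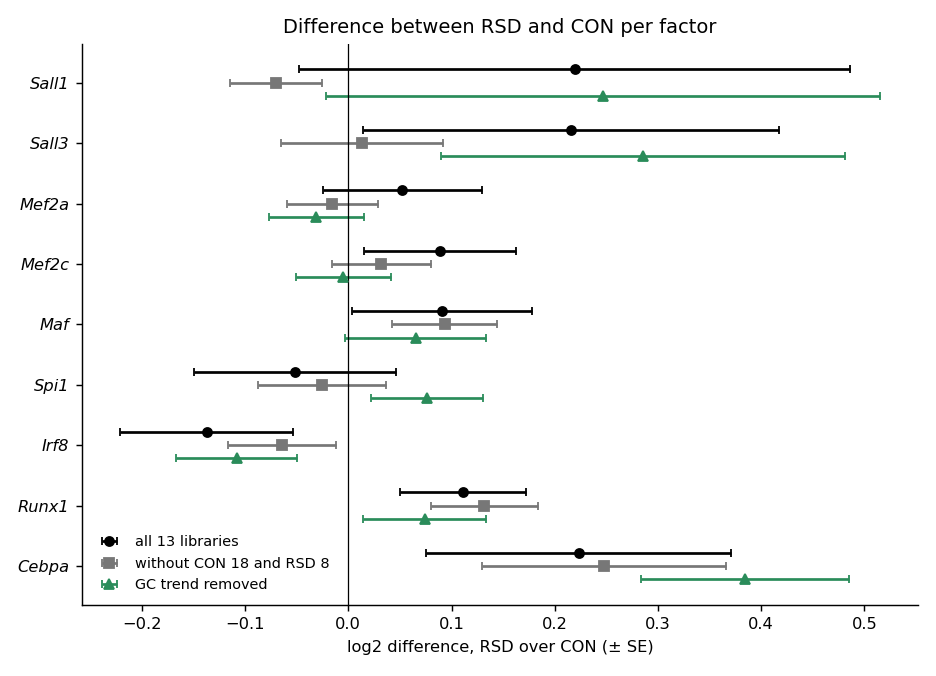
Log2 difference of RSD over CON for each factor with its standard error, from limma on all 13 libraries, without CON 18 and RSD 8, and after the GC trend of each library was removed. The Sall1 estimate is 0.22 with all libraries and -0.07 without these 2, and the Cebpa estimate is 0.22 with all libraries and 0.38 with the GC trend removed.

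The base composition of the transcripts ran alongside the departures of RSD 8. The longest transcript of Mef2c has 40.8% GC, Mef2a 42.0%, Runx1 46.4%, Maf 47.4%, Sall1 51.6%, Irf8 51.7%, Sall3 54.4%, Spi1 58.9% and Cebpa 62.6%. Over all genes with a known GC content, a gene's deviation from its mean had a Spearman rho with GC content of -0.718 in RSD 8 and -0.502 in RSD 2, and of -0.0416 to 0.478 in the other 11 libraries. In RSD 8 the factors with the least GC were above the median of the other libraries, with Mef2a at 132% and Mef2c at 129% of it. Maf was at 132% and Runx1 at 103% there, while Sall1 (89.7%), Sall3 (88.9%), Irf8 (71.5%), Spi1 (69.6%) and Cebpa (66.6%) were below it. The order by GC content was thus not exact, since Runx1 has less GC than Maf, and Sall1 nearly as much as Irf8. Across 13 libraries, Mef2c fell with the library's GC trend (Pearson r = -0.863, Spearman rho = -0.615; permutation p = 0.00219 and 0.043 adjusted over 9 factors) and Spi1 rose with it (r = 0.901, rho = 0.632; permutation p = 0.00144 and 0.043 adjusted). Without RSD 2 and RSD 8, r was -0.40 for Mef2c and 0.577 for Spi1, so these relations rest in large part on those libraries. Sall3 differed from them in this, with r = 0.343 and rho = 0.813 over 13 libraries (permutation p = 0.268 and 0.0102 adjusted), and r = 0.717 and rho = 0.845 without RSD 2 and RSD 8.

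A smooth trend on GC content was then taken out of each library, a step chosen after these values were seen. RSD 8 afterwards lay at 98.2% of the median of the others for Mef2a and 92.1% for Mef2c, and at 116% for Spi1 and 123% for Cebpa. Irf8 was still the lowest of 13 there, at 2992 against 3424 to 4043 in the others, and Maf still the highest, at 6962 against 5339 to 6830. CON 18 was at 29.3% for Sall1 and 39.3% for Sall3 afterwards. It then also lay below all other libraries for Spi1 (88.8%), Cebpa (67.8%), Mef2a (91.8%) and Mef2c (90.5%), and above them for Irf8 (109%). Cebpa had a lowest, median and highest value of 2267, 2490 and 3129 in RSD after this step, against 1629, 1859 and 2468 in CON. The groups still overlapped, with 4 RSD libraries above all controls, and the limma adjusted p was 0.888.

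**Figure D4:**
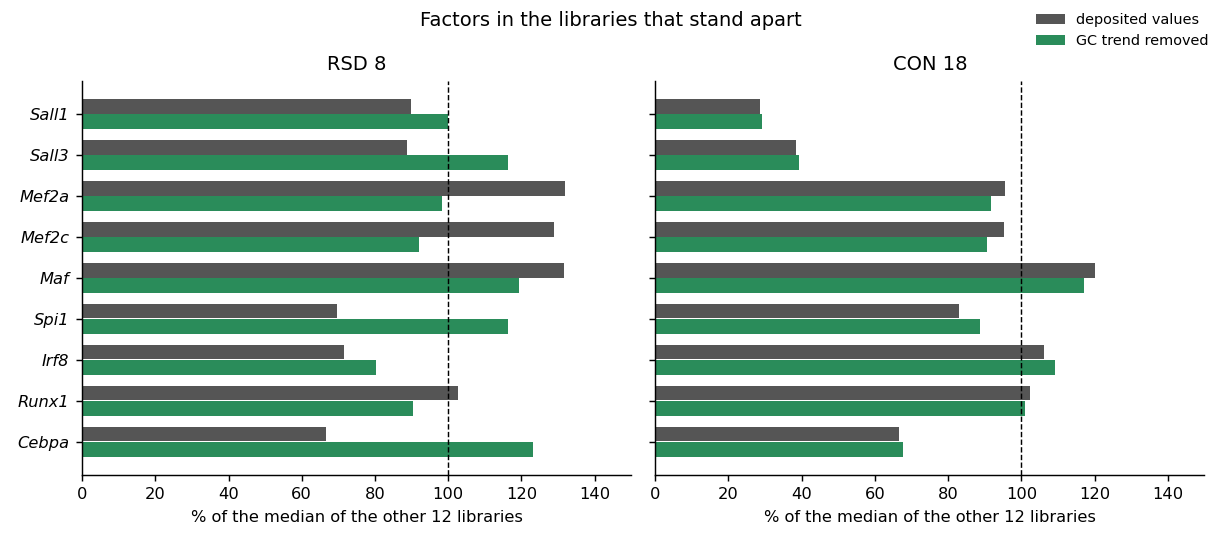
Level of each factor in RSD 8 (left) and CON 18 (right) as a percentage of the median of the other 12 libraries, from the deposited values and with the GC trend removed; the dashed line is at 100%. In RSD 8 Mef2a moves to 98.2% and Irf8 to 80.4%, and in CON 18 Sall1 stays at 29.3%.

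The factors varied together in a few pairs. Of 36 pairs, 7 passed a permutation test of Pearson's r over 13 libraries and 3 of Spearman's rho, adjusted over the 36. Mef2c and Irf8 ran in opposite directions (r = -0.964, rho = -0.89; permutation p = 0.00072 and 0.00396 adjusted). They did so without RSD 2 and RSD 8 as well (r = -0.791, rho = -0.818), and with the GC trend removed r was 0.217 and rho -0.0879. That step did not free each factor of the library's GC trend. Afterwards Irf8 had r = 0.797 with the trend, against 0.87 before. Mef2c had r = 0.609, against -0.86 before, and Mef2a had r = 0.44, against -0.81 before. The relation of these MEF2 factors with the trend thus changed sign. Mef2a and Mef2c rose together (r = 0.906, rho = 0.775; permutation p = 0.0104 and 0.0335 adjusted), with r = 0.664 without RSD 8 and RSD 11 and 0.576 with the GC trend removed. Mef2a and Irf8 were opposed (r = -0.916, rho = -0.775; permutation p = 0.0104 and 0.0335 adjusted), with r = -0.718 without RSD 8 and RSD 11 and 0.0795 with the GC trend removed. Sall1 and Sall3 had r = 0.947 (rho = 0.544; permutation p = 0.0418 and 0.252 adjusted), which was 0.395 without CON 5 and CON 18 and so rested on these samples.

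**Figure D5:**
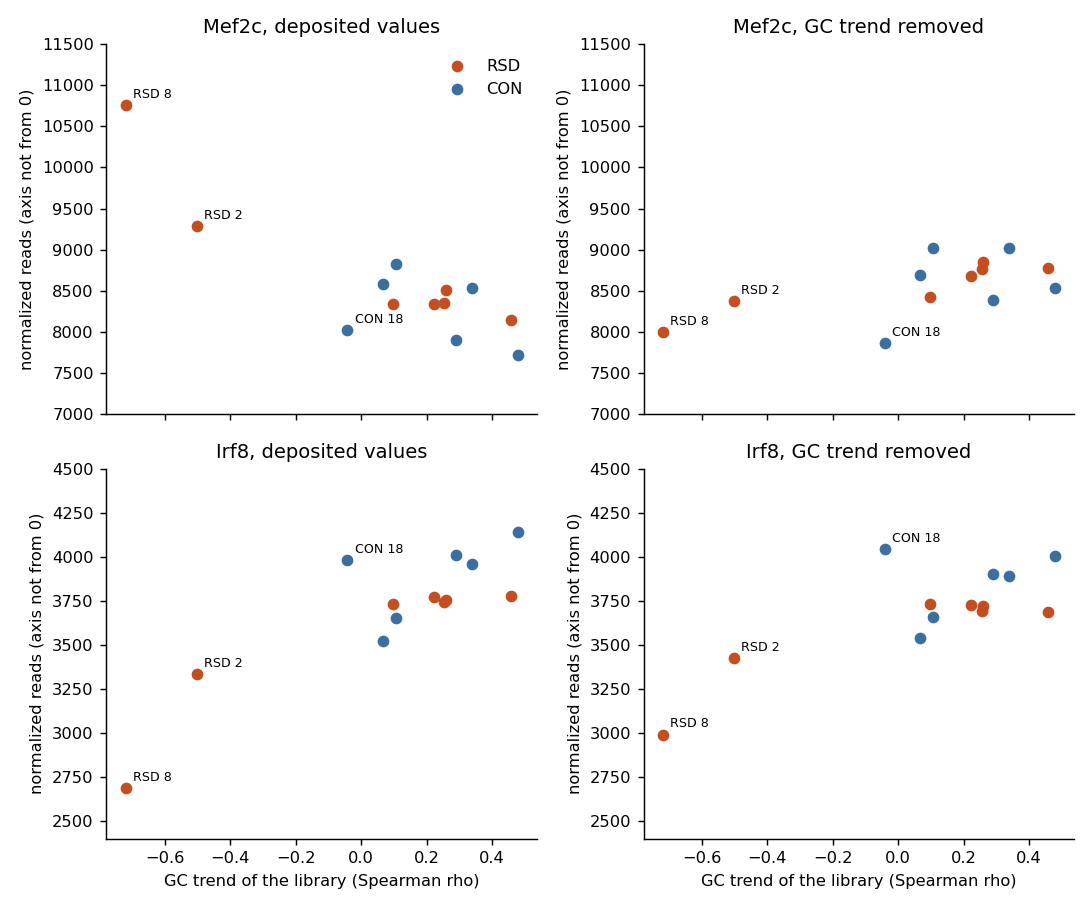
Normalized reads of Mef2c (top) and Irf8 (bottom) against the GC trend of the library, the Spearman rho of its deviations with GC content, for deposited values (left) and with the trend removed (right); vertical axes do not start at 0. RSD 8 and RSD 2 lie far left, and the Irf8 value of RSD 8 stays lowest at 2992.

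Genes with the most similar profile over the 13 libraries were found among 8858 with a mean of at least 100 normalized reads. By Spearman's rho, Slc2a8 was closest to Irf8 (0.978), Tuba1a to Sall1 (0.962), Gdi2 to Mef2c (0.956), Apc to Mef2a (0.945), Dtx4 to Sall3 (0.923) and Cyc1 to Spi1 (0.923). Gm13889 was closest to Cebpa (0.918), Atl2 to Maf (0.912) and Cnksr3 to Runx1 (0.874). Mef2c had 29 genes at a rho of at least 0.9 and Irf8 had 21, while Runx1 had 0. The libraries share their GC trend and the scaling across these genes, and these rhos are a description.

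Paralogues of the factors also did not pass the test. Of 18 tested, 0 passed in limma and 9 of the estimates were positive, with a median log2 difference of -0.0012 against 0.01 over all genes. Irf4, an interferon regulatory factor of lymphoid and myeloid cells, had the smallest p (208 ± 16.3 in RSD and 185 ± 23.6 in CON; log2 0.17 ± 0.10, limma adjusted p = 0.821). Cebpg, a C/EBP partner without an activation domain, was at 1564 ± 351 in RSD and 1344 ± 127 in CON, and Cebpd, an inducible C/EBP factor, at 521 ± 51.4 in RSD and 477 ± 42.9 in CON. CON 18 held paralogues that the other libraries held at a low level. Runx3 was at 376 normalized reads in CON 18 and at 0 to 9.5 in the other 12. Spic, an ETS factor of red pulp macrophages in the spleen, was at 64.2 in CON 18 and 0 to 1.16 in the others, Runx2 at 292 against 53.8 to 84.1, and Irf7, an interferon-induced factor, at 189 against 47.8 to 83.4. Runx3, Spic, Runx2 and Irf7 were picked after their values were seen.

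Partners and target genes gave the same count. Of 32 partners and cofactors, 0 passed in limma and 21 were positive, with a median log2 difference of 0.03. Hdac2, a deacetylase of the NuRD complex that SALL proteins recruit, had the smallest p (508 ± 73.7 in RSD and 432 ± 40.9 in CON; log2 0.23 ± 0.09, limma adjusted p = 0.821). Hdac4, a repressor that binds MEF2 proteins, was at 373 ± 43.2 in RSD and 431 ± 82.1 in CON, and Tgfbr1, a receptor for the TGF-beta signal on which Sall1 expression depends, at 36386 ± 5207 in RSD and 32528 ± 2550 in CON. CON 18 lay outside the other controls for both. Hdac4 was at 580 there against 353 to 442, and Tgfbr1 at 28482 against 31050 to 35680. Of the 20 microglial genes downstream of the factors, 0 passed and 13 were positive, with a median of 0.10. These estimates include CON 18, where 14 of the 20 were the lowest of 13 libraries, beside 22.6% of all genes tested. No estimate of this list without CON 18 is given here. The ectonucleotidase gene Entpd1 was at a log2 difference of 0.16 ± 0.11 and the lysophospholipid receptor gene Gpr34 at 0.21 ± 0.14 (limma adjusted p = 0.821 for both), and CON 18 was the lowest library for each.

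Of the markers of other cells that were tested, 0 passed in limma, beside 0% of all genes tested. Their summed levels differed widely, and the astrocyte sums reached the level of Spi1 (988.6 to 1501.4 normalized reads in RSD). The summed level of 7 neuron markers was 30.2 to 81.2 normalized reads in RSD and 25.1 to 97.1 in CON, where Mef2c alone was above 7718. The 2 lymphocyte markers with values summed to 4.45 to 15.7 in RSD and 4.83 to 18.0 in CON. Oligodendrocyte markers summed to 633 to 931 in RSD and 861 to 1003 in CON, astrocyte markers to 1277 to 1632 in RSD and 500 to 1628 in CON, and endothelial and mural markers to 349 to 487 in RSD and 98.0 to 515 in CON. The low ends of the astrocyte and of the endothelial and mural sums in CON were both CON 18, the library in which Sall1 and Sall3 were lowest. The remaining controls were at 1264 to 1628 and at 411 to 515. The markers in these sums did not all fall in CON 18. Against the median of the other libraries, Slc1a3 was at 0.290 and Aqp4 at 0.277, while Slc1a2 was at 5.82-fold. Pecam1 was at 0.116 and Pdgfrb, a low gene, at 0.084, while Cdh5 was at 0.988. The part of these markers in the SALL values was not tested.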

How the data were processed

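RNA of sorted microglia was sequenced in 13 libraries. Per the submitters' processing notes, STAR (alignment), DESeq2 (normalized counts) and mm10 were used. Neither their versions nor the counting step are described in the sources. Per the labels' protocols, rRNA was depleted during library preparation. The deposited signal of a gene is a read count divided by a size factor: within a library 100% of values were whole multiples of 1 step, within 0.01 reads, so whole reads were recovered. No pair of libraries agreed within sampling noise (chi-square over its degrees of freedom at least 4.21).

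Members, gene lists, alternatives and the rule for named genes (all factors, up to 3 list members of smallest p, P2ry12, Apoe, Mrc1, 1 further gene that is not reported here, and the closest profiles) were chosen with earlier results of these data known. Genes were kept by filterByExpr (minimum count 10, minimum total 15). The design had named edgeR for raw counts and limma otherwise; limma (3.58.1) was used, with its trend and robust options, on log2(value + 1), a scale that understates changes of low genes, with Benjamini-Hochberg adjustment over all genes, two-sided, threshold 0.05, and was tested on simulated data. edgeR (4.0.16, calling 0 genes, 601 at an unadjusted p under 0.05) and DESeq2 (1.42.0) were run on recovered reads in R 4.3.3. Single values were tested over all 1716 assignments, and pairs with 100000 resamples. Positions, exon lengths and GC content come from GENCODE M21 (GRCm38, the assembly of mm10), which matched 13790 symbols directly and 563 by a synonym. Start-site windows come from RefSeq. The GC trend was fitted per library as a robust spline of the deviation from the gene mean, over the 98.98% of tested genes with a value.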

Additional observations from a re-analysis of the deposited data

Results flagged for a closer look

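Of the 18 groups, 5 (9 factors in RSD and in CON) held a library far from the rest of its group by Dixon's ratio of gap to range, a rule that chance meets in about 1 group in 20. The groups share the same libraries, and all 5 flags were in CON 18 or RSD 8. The share of all genes that meet this rule is not given here. CON 18 was the highest of 13 libraries for 21.5% and the lowest for 22.6% of all genes tested, and RSD 8 for 27.5% and 24.9%. Sall1 was at 4225.8 normalized reads in CON 18, against 14456 to 16684 in the other controls. Sall3 was at 1174.2 in CON 18, against 2516 to 3240 in the other controls. Maf was at 6895.5 in CON 18, against 5197 to 5786 in the other controls. Mef2a was at 18885.0 in RSD 8, against 13532 to 15245 in the other RSD libraries. Irf8 was at 2688.0 in RSD 8, against 3332 to 3779 in the other RSD libraries.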

How the results depend on the processing

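No paired analysis was possible because RSD and CON share no sample number. No factor passed under the 25 alternatives, which were fits in limma, edgeR and DESeq2, and the lowest adjusted p was 0.205. Over all genes DESeq2 called 2 and every other alternative 0. Of 225 factor values 206 kept their direction. With quality weights in limma-voom Sall1 was at -0.0577 and Mef2a at -0.0196 (log2, RSD over CON), and 2 factors (Runx1 and Cebpa) had an unadjusted p under 0.05, beside 9.02% of all genes. Within numbers 1 to 8 there were 2 (Irf8 and Maf), beside 22.2%. There was 1 without CON 18 and RSD 8 (Runx1, beside 4.88%), without CON 18 (Runx1, 4.92%), without RSD 8 (Cebpa, 3.09%) and with the GC trend removed (Cebpa, 4.29%). Without CON 18 and RSD 8 Sall1 was at -0.0699 and Mef2a at -0.0156, in limma and in the exact test. Within numbers 1 to 8 Sall1 was at -0.141, Sall3 at -0.188 and Cebpa at -0.00339. Within numbers 10 to 19 Mef2a was at -0.0483, Mef2c at -0.023, Maf at -0.0713, Irf8 at 0.0186 and Spi1 at 0.116. With the GC trend removed Mef2a was at -0.0311, Mef2c at -0.00469 and Spi1 at 0.0764, and Cebpa was at 0.38 ± 0.10 (limma adjusted p = 0.888). The cause of these turns was not tested. Leaving out each library in turn gave ranges of -0.0909 to 0.305 for Sall1 and -0.00898 to 0.284 for Sall3, both turning without CON 18, and of -0.00522 to 0.0749 for Mef2a and -0.0954 to 0.0183 for Spi1, both turning without RSD 8. It gave 0.04 to 0.11 for Mef2c, -0.16 to -0.07 for Irf8, 0.04 to 0.15 for Maf, 0.09 to 0.13 for Runx1 and 0.14 to 0.32 for Cebpa. Without CON 18 and RSD 8 Pearson's r passed for 1 pair in place of 7 and Spearman's rho for 4 in place of 3. Mef2c with Irf8 is in both sets of rho, Mef2a with Mef2c and Mef2a with Irf8 no longer passed (permutation adjusted p = 0.0787 for each), and Sall3 with Irf8, Sall3 with Mef2c and Runx1 with Cebpa were added. Depth limits these values little, since counting error was at most 3.28% for a factor in a library.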
